A study of Homo sapiens with 18 samples.

Results

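H9 is an established line of human embryonic stem (ES) cells, and the study followed its conversion into neuroepithelium, the cell sheet from which brain and spinal cord form. Total RNA pools were hybridised to 1-colour Affymetrix expression arrays. The comparison described here asks which genes changed between day 10 and day 17 while the cultures were kept in the growth factor bFGF (basic fibroblast growth factor, or FGF2), and how that change compares with the one in cultures without it. It uses 6 of the 18 arrays in the series: 3 pools of H9-derived day 10 neural epithelium and 3 pools of day 17 definitive neural epithelium, all given bFGF from day 6. The reference for the effect of bFGF on the change is a further 6 arrays, 3 pools each of day 10 and day 17 neural epithelium with no bFGF named in the labels, and the levels of the ES and day 6 embryoid body arrays are given only where they are named, although the spread within all 6 groups sets the error of every test. The dose in the labels is 20 ug/ml at day 10 but 20 ng/ml at day 17, so that day and stated dose cannot be told apart. All pools come from 1 cell line, and nothing in the labels says that the neuroepithelial pools came from separate cultures, so the p-values measure the spread between these pools, which may be technical.

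By day 10 of such cultures ES cells have become columnar neural cells, and by day 17 these form rosettes around a central lumen, an arrangement that resembles the neural tube. Cells leave the rosettes as neurons, first switching on proneural transcription factors and then a cytoskeleton and RNA-binding proteins of their own. FGF signals through receptor tyrosine kinases and the ERK kinases, which switch on feedback inhibitors such as the Sprouty proteins, and in the embryo it patterns the telencephalon, the front of the forebrain, along its dorsal to ventral and front to back axes.

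The deposited values were scaled to a common level on every array. Pool 2 stood apart: its median signal was 48.75 to 49.47 on the 2 bFGF arrays against 28.26 to 31.79 on the other 4, and its ACTB 3' to 5' ratio, a measure of RNA integrity, was 2.418 to 2.568 against 1.166 to 1.553. Pool 2 is in both day groups, and in the first principal component of the 6 arrays (50.3% of the variance) it separated from pools 1 and 3, while the days separated in the second (19.6%). Signals are given in the order of pools 1, 2 and 3, and changes as log2(signal + 16) estimates ± standard error from limma with 3 arrays in each group. Adding 16 to each signal makes the changes of low signals smaller than their ratio. Markers of the labelled cell type were present on all 6 bFGF arrays: SOX2 was at 5248 to 8512, PAX6 at 1011 to 1534, CDH2 at 4017 to 6252 and NES at 1003 to 2395, and the ES cell factor NANOG was at 23.5 to 65.8. Other genes of ES cells were not as low. L1TD1 was at 98 to 1451 on these arrays, and LIN28A was above that range on every one of them.

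Between day 10 and day 17 under bFGF, the largest increases included neuronal genes (STMN2, NEFL) and transcription factors of the forebrain (POU3F3, EMX2), and the largest decreases another forebrain factor (HESX1), a gene of pluripotency (L1TD1) and epithelial genes (CDH1, GABRP). Of 19775 genes tested, 209 passed limma's test at a Benjamini-Hochberg adjusted p under 0.05 (1.06%), of which 132 were higher at day 17 (0.668%) and 77 lower (0.389%). Without adjustment, 1456 of the 19775 had a limma p under 0.05, the background for such counts in the gene lists below. The change was at least 2-fold for 126 of the higher and 62 of the lower genes. All 209 had groups that did not overlap, and therefore the same sign in each of the 3 pools. Of all genes, 12.0% had groups that did not overlap. The 209 were selected by a test on these same arrays, which favours such groups, so the contrast is not separate support. The higher genes were mostly low at day 10, with a median group mean of 55.7 rising to 223, and the lower genes were well expressed at day 10, with a median of 347 falling to 94.8. With the pool number as a block, which treats same-numbered pools as pairs, 450 genes passed (2.28%), among them all 209. Other settings lowered the count: 6 genes passed with the compared groups fitted alone, 93 without pool 2, 113 with a pseudocount of 1 and 117 to 150 without 1 of the 6 arrays.

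**Figure D1:**
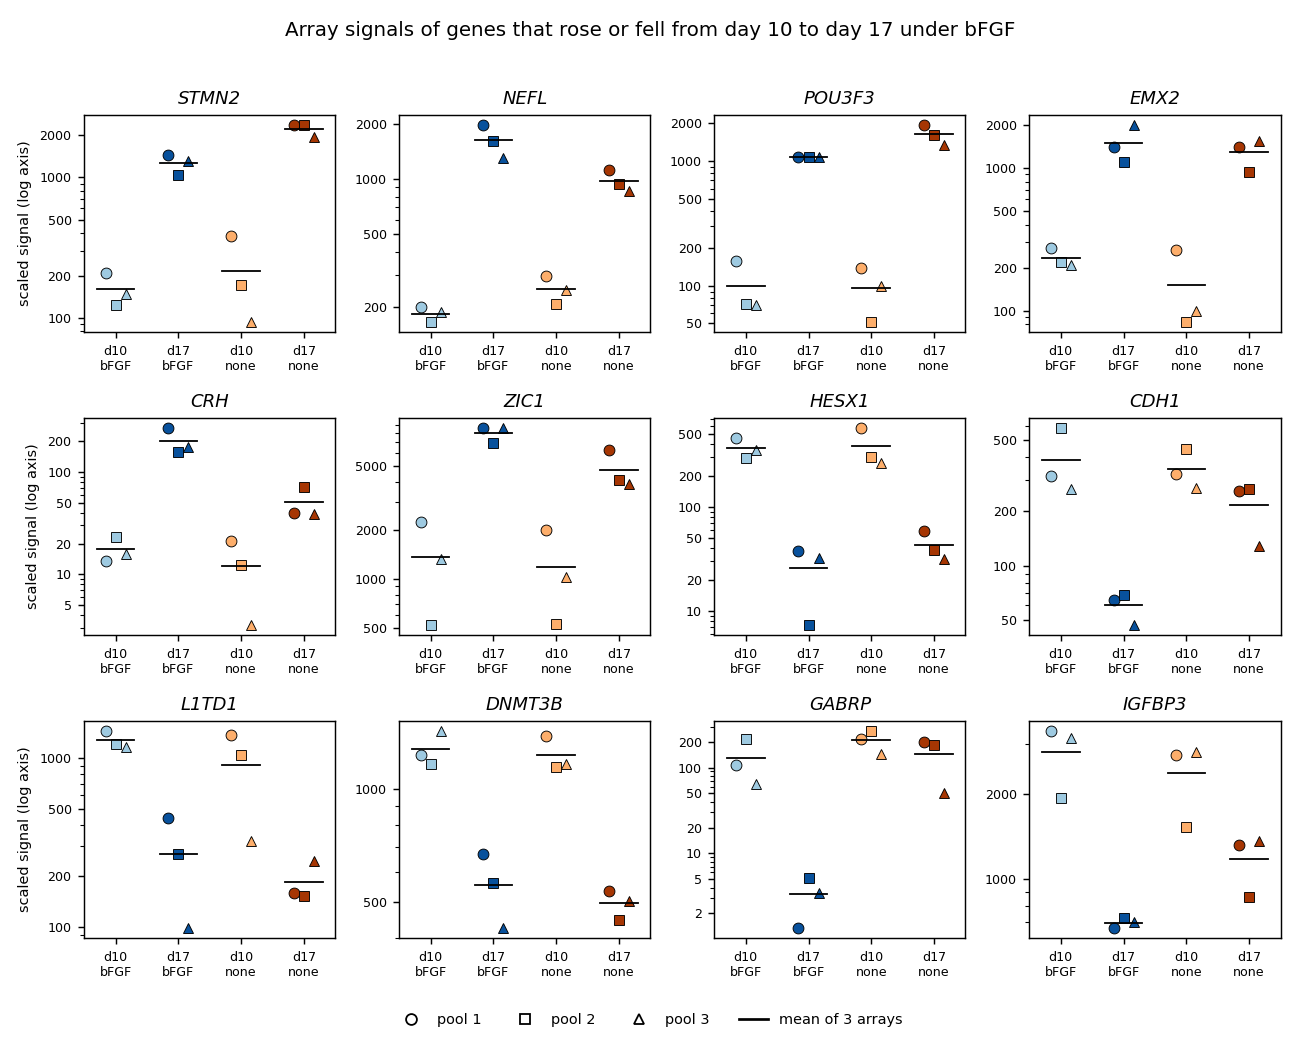
Scaled signal (log axis) of 12 genes on each array, by day and treatment (bFGF, or none), with a symbol for each pool and a line at the mean of 3 arrays. STMN2, NEFL, POU3F3, EMX2, CRH and ZIC1 were higher on every day 17 bFGF array than on any day 10 bFGF array, and HESX1, CDH1, L1TD1, DNMT3B, GABRP and IGFBP3 were lower. Without bFGF the changes of GABRP, CDH1 and IGFBP3 did not pass the test, and those of the other 9 did.

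Of 30 neuronal cytoskeleton and RNA-binding genes 9 rose, 0 fell and 21 were not called. STMN2, a microtubule-destabilising protein of growing axons, was at 207, 123 and 148 at day 10 and at 1445, 1044 and 1314 at day 17 (log2 change 2.89 ± 0.35, adjusted p = 0.000565). NEFL, the light neurofilament subunit, went from 200, 165 and 188 to 1977, 1621 and 1301 (3.02 ± 0.20, adjusted p = 1.22e-06). Every day 17 array lay well above every day 10 array for both genes; pool 2 was the lowest on both days for STMN2. DCX, a microtubule protein of migrating neurons, rose from 497, 274 and 222 to 1245, 1362 and 1307 (2.01 ± 0.33). GAP43, a growth cone protein, rose from 163, 131 and 170 to 698, 582 and 885 (2.10 ± 0.26). Also higher were the neuronal RNA-binding proteins ELAVL4 (2.58) and ELAVL3 (2.13), the neurofilament NEFM (2.25) and the stathmins STMN3 (1.77) and STMN4 (1.30).

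The list's median change was 0.72, against -0.01 over all genes. Without pool 2, which leaves 2 arrays a group, 6 of the 30 were called, and with the pool as a block 12. General neuronal genes that were already high did not pass: MAP2, a dendritic microtubule protein, was at 1615 to 2408 at day 10 and 1486 to 2201 at day 17, and TUBB3, the neuronal tubulin, at 2426 to 4494 and 3818 to 8028 (log2 change 0.73, adjusted p = 0.828), each overlapping between the days. Of 27 synapse and vesicle genes 0 were higher and 2 lower, SCG5, a secretory granule chaperone (-1.15), and NLGN1, a postsynaptic adhesion protein (-0.89), and without pool 2 limma called 0 of the 27, while 7 had an unadjusted p under 0.05 with all pools. With the pool as a block 2 were also higher, the vesicle protein SYT4 (1.83, adjusted p = 0.0542 without the block and 0.0274 with it) and the granule protein SCG2 (1.29, 0.276 and 0.0280). Of 23 genes of GABA and glutamate transmission 1 was higher, SLC17A6, the vesicular glutamate transporter of many early excitatory neurons, listed at 1.68, 15.5 and 6.39 and then at 89.2, 87.1 and 46.7 (1.92 ± 0.33, adjusted p = 0.00638); with the block GRIN3A, an NMDA receptor subunit, passed too (1.47, adjusted p = 0.0641 without the block and 0.00898 with it). ABAT, which breaks down GABA and is not in that list, was among the largest increases, from 156, 135 and 126 to 1057, 1049 and 1132 (2.82 ± 0.31). In pooled RNA, more neurons and more of these transcripts per neuron cannot be told apart.

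POU3F3, a POU-domain transcription factor of cortical progenitors and upper-layer neurons, had the largest increase among called genes. Its signal was 159, 71.0 and 70.0 at day 10 and 1081, 1074 and 1070 at day 17 (3.32 ± 0.35, adjusted p = 0.000212). PANTR1, a long non-coding RNA that is its neighbour on chromosome 2, had the second largest, from 75.6, 61.2 and 54.2 to 611, 768 and 754 (3.19 ± 0.30, adjusted p = 9.42e-05). LINC01159, the neighbour on the other side, rose from 3.79, 34.0 and 1.35 to 82.7, 112 and 105 (2.16 ± 0.38). All day 17 arrays of the 3 transcripts were above all day 10 arrays, and POU3F3 at day 17 was nearly the same in the 3 pools. In the RefSeq gene order, 8 pairs of neighbouring array genes were both called, and in all 8 the direction was the same. Besides the POU3F3 pairs these were NKX2-1 with SFTA3, ZIC1 with ZIC4, NEFL with NEFM, STMN2 with HEY1 and IL13RA1 with ZCCHC12, all higher, and OCLN with MARVELD2, both lower. They were listed after their values were seen, and transcripts that start or end near each other can share probes or promoters. The share of neighbouring genes that changed in the same direction was not counted over all genes, so the 8 pairs have no background to be read against.

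The stretches just upstream of both start sites are shown because the 2 neighbours rose together. They are RefSeq reference sequence (GRCh38.p14), 5' to 3' on the strand of the gene, at chr2:104853945-104854064 (+) for POU3F3 and chr2:104851477-104851596 (-) for PANTR1. Capitals mark CCAAT boxes in POU3F3 and, in PANTR1, the octamer ATGCAAAT, the sequence that POU factors are known to bind, here on the opposite strand.
POU3F3: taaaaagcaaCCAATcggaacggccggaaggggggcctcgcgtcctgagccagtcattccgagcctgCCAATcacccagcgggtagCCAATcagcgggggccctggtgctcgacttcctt
PANTR1: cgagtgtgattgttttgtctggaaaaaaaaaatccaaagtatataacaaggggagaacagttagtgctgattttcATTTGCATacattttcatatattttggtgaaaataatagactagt
Over windows of 250 bases before to 50 after the start, on either strand, the octamer was in 1.51% of 15384 promoters of tested genes, in 4 of the 100 found for higher genes (4%) and in 1 of the 61 found for lower genes (1.64%). CCAAT was in 36.1% of all, 37% of the higher and 52.5% of the lower. A match describes the letters alone and says nothing of binding.

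Of 31 proneural and commitment factors 5 were higher and 0 lower (median 0.41), 2 without pool 2 and 9 with the pool as a block. Besides POU3F3 these were INSM1, a zinc finger factor that drives the exit of neuronal progenitors, from 28.5, 17.6 and 35.1 to 238, 188 and 386 (2.70 ± 0.33), NHLH1 (1.75), a helix-loop-helix factor of newborn neurons, LHX9 (1.38), a LIM homeodomain factor, and ST18 (1.37), a zinc finger factor of the MYT1 family. Outside the list, ZNF536, a zinc finger repressor of neuronal differentiation, rose by 2.70 ± 0.37 and AMER2, a membrane regulator of Wnt signalling, by 2.83 ± 0.38. CRH, the stress-axis neuropeptide corticotropin-releasing hormone, rose from 13.4, 23.3 and 15.8 to 270, 157 and 174 (2.67 ± 0.28, adjusted p = 0.000212), with no overlap between the days.

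Among the regional lists, that of the dorsal forebrain and cortical hem had the most genes called higher. These counts were not tested against those of the other lists, and RELN, EOMES, TBR1, RSPO2 and LHX9 each lost the call without at least 1 array. EMX2, a homeodomain factor that patterns the cortex and the cortical hem, went from 275, 218 and 207 to 1404, 1094 and 2003 (2.57 ± 0.39, adjusted p = 0.00305). The days did not overlap, and the highest day 17 value was that of pool 3. Of 25 dorsal forebrain and cortical hem genes 7 were higher and 0 lower (median 0.62), 5 without pool 2. They included genes of the first cortical neurons: RELN, the secreted guide of cortical layering made by Cajal-Retzius cells, rose from 43.6, 55.2 and 25.9 to 229, 150 and 202 (1.88 ± 0.34). EOMES, a T-box factor of intermediate progenitors, rose from 36.9, 81.1 and 32.1 to 148, 218 and 279 (1.84 ± 0.35). TBR1, a T-box factor of early glutamatergic neurons, was listed at 1.47, 9.31 and 4.05 and then at 30.5, 48.8 and 42.3 (1.44 ± 0.30). RSPO2, a Wnt agonist of the hem (1.99), LHX9 and DMRTA1, a DM-domain factor of dorsal progenitors (1.39), completed the 7.

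The ventral genes were uneven. DLX6-AS1, a non-coding RNA beside the DLX5 and DLX6 genes of GABAergic neurons, rose from 25.5, 30.9 and 21.3 to 132, 219 and 165 (2.14 ± 0.29, adjusted p = 0.00115). NKX2-1, the homeodomain factor of the ventral telencephalon and hypothalamus, was listed at 1.28, 9.28 and 0.815 and then at 70.7, 51.2 and 74.5 (2.05 ± 0.28, adjusted p = 0.00120). A second NKX2-1 probe set, an _x_at set with a mean of 10.1 over the 18 arrays, gave 0.20. OLIG1, a helix-loop-helix factor of ventral progenitors, was the third of 24 ventral forebrain and GABAergic genes called (1.47), with 0 lower and a median of 0.25; 2 were higher and 1 lower without pool 2, and 3 and 1 with the block. DLX1, a homeodomain factor required for the migration of cortical interneurons, was not called: it was at 202, 122 and 72.8 at day 10 and at 631, 285 and 189 at day 17 (1.30 ± 0.46, adjusted p = 0.347). It was higher at day 17 in each of the 3 pools, but pool 3 at day 17 lay below pool 1 at day 10. DLX2, its neighbour and partner, was at 150, 143 and 105 and then at 744, 204 and 322 (1.38 ± 0.50, adjusted p = 0.362), with no overlap.

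EMX2 and DLX6-AS1 were among 7 higher genes whose promoter window holds TAATTA, the core sequence that homeodomain factors of many families bind; the others were DCX, MIR99AHG, OTX2-AS1, SFTA3 and TBR1. The RefSeq stretches (GRCh38.p14), with TAATTA in capitals, are at chr10:117542626-117542745 (+) for EMX2 and chr7:97014165-97014284 (-) for DLX6-AS1.
EMX2: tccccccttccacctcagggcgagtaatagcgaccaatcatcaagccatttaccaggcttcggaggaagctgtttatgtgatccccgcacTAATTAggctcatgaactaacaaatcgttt
DLX6-AS1: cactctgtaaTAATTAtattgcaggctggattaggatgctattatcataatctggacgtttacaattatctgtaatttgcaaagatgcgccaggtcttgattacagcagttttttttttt
The sequence reads the same on both strands. It was in 7% of the 100 higher promoters, in 4.92% of the 61 lower ones and in 3.05% of all. In all 7 motifs were searched, and 3 of them were E-boxes, the kind of site that proneural factors bind. The E-box CAGCTG was in 20% of the higher promoters against 17.8% of all, the E-box CATCTG in 16% against 11.9%, and the E-box CATATG in 2% against 1.85%. The TATA sequence TATAAA was in 12% against 8.76%.

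Regulators of the anterior forebrain went both ways. HESX1, a homeobox repressor of the anterior neural plate and pituitary, had the largest decrease among called genes, from 454, 295 and 352 to 37.5, 7.31 and 32.3 (-3.27 ± 0.32, adjusted p = 0.000163). NR2E1, a nuclear receptor of telencephalic neural stem cells, rose from 15.2, 3.94 and 22.8 to 110, 172 and 157 (2.47 ± 0.30, adjusted p = 0.000620). Neither gene's days overlapped, and they were the 2 called of 16 forebrain and eye field genes (median -0.10). RAX and SIX3, regulators of the eye field, were lower at day 17 in all 3 pools without passing (-1.98 and -1.34, adjusted p = 0.0970 and 0.0672), and both SIX6, a related factor (-1.40, adjusted p = 0.0757), and FEZF2, a zinc finger factor of the forebrain (0.95, adjusted p = 0.743), also missed. With the pool as a block SIX3 and SIX6 passed (adjusted p = 0.0405 and 0.00665). Without pool 2, 4 members were lower and 1 higher, and with the block 3 and 1. OTX2, a general anterior factor, was at 2323 to 3739 at day 10 and 2400 to 2892 at day 17, and LHX2, a LIM factor of forebrain progenitors, at 2695 to 3448 and 2529 to 2893. Of 19 midbrain and hindbrain genes 1 was higher, EN2, a homeodomain factor of the midbrain-hindbrain boundary (1.22 ± 0.24), with 0 called without pool 2 and 2 with the block, where PAX5, a paired-box factor of the same boundary, passed (1.25, adjusted p = 0.0480). Of 24 posterior HOX and CDX genes limma called 0, with 1 at an unadjusted p under 0.05 and 0 called with the pool as a block.

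The HESX1 stretch is shown for the decrease, at chr3:57227616-57227735 (-), RefSeq GRCh38.p14, with its CCAAT box in capitals on the opposite strand.
HESX1: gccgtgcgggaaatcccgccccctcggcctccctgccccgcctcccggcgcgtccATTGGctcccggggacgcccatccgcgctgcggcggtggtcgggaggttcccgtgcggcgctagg

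Of 28 genes of neural progenitors and radial glia 2 were higher, 1 lower and 25 not called (median 0.09). The share called was 10.7%, against 1.06% of all genes. ZIC1, a dorsal zinc finger regulator, rose from 2260, 516 and 1333 to 8644, 6903 and 8578 (2.77 ± 0.49, adjusted p = 0.00797), with pool 2 lowest on both days. PLAGL1, an imprinted zinc finger factor, rose (1.53), and LRP2, an endocytic receptor of the forebrain neuroepithelium, fell from 892, 747 and 812 to 426, 441 and 290 (-1.07 ± 0.21). SOX1, a defining factor of neuroepithelium, was at 588, 473 and 636 and then at 1219, 915 and 1858 (1.16 ± 0.31, adjusted p = 0.107). HES5, a Notch target that maintains progenitors, differed more between pools than between days, at 1577, 602 and 2591 and then 1487, 673 and 2623. Of 36 cell cycle genes limma called 0, with 1 at an unadjusted p under 0.05, a median of 0.02 and 1 higher with the pool as a block, CDKN1C, a cell cycle inhibitor (1.26, adjusted p = 0.339 without the block and 0.00286 with it). Of 25 glial genes 2 were higher, NFIB, a nuclear factor that promotes gliogenesis, from 10.8, 27.8 and 27 to 113, 226 and 175 (2.29 ± 0.36), and OLIG1, with 1 called without pool 2 and 3 with the block. Of 23 Notch genes 3 were higher and 0 lower (median 0.10), also 3 without pool 2 and 4 with the block: HEY1, a transcriptional target, went from 379, 545 and 298 to 1149, 1234 and 1472 (1.65 ± 0.24), DNER, a neuronal transmembrane ligand, rose by 1.89 ± 0.29 and DLL3, an inhibitory ligand, by 1.70 ± 0.29. The DLL3 probe set used had a mean signal of 25.1 over all 18 arrays. A brighter _x_at set (90.5) gave 0.84 and the other _x_at sets 0.19 and 0.33, and the DLL3 call was lost with the mean of its probe sets.

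**Figure D2:**
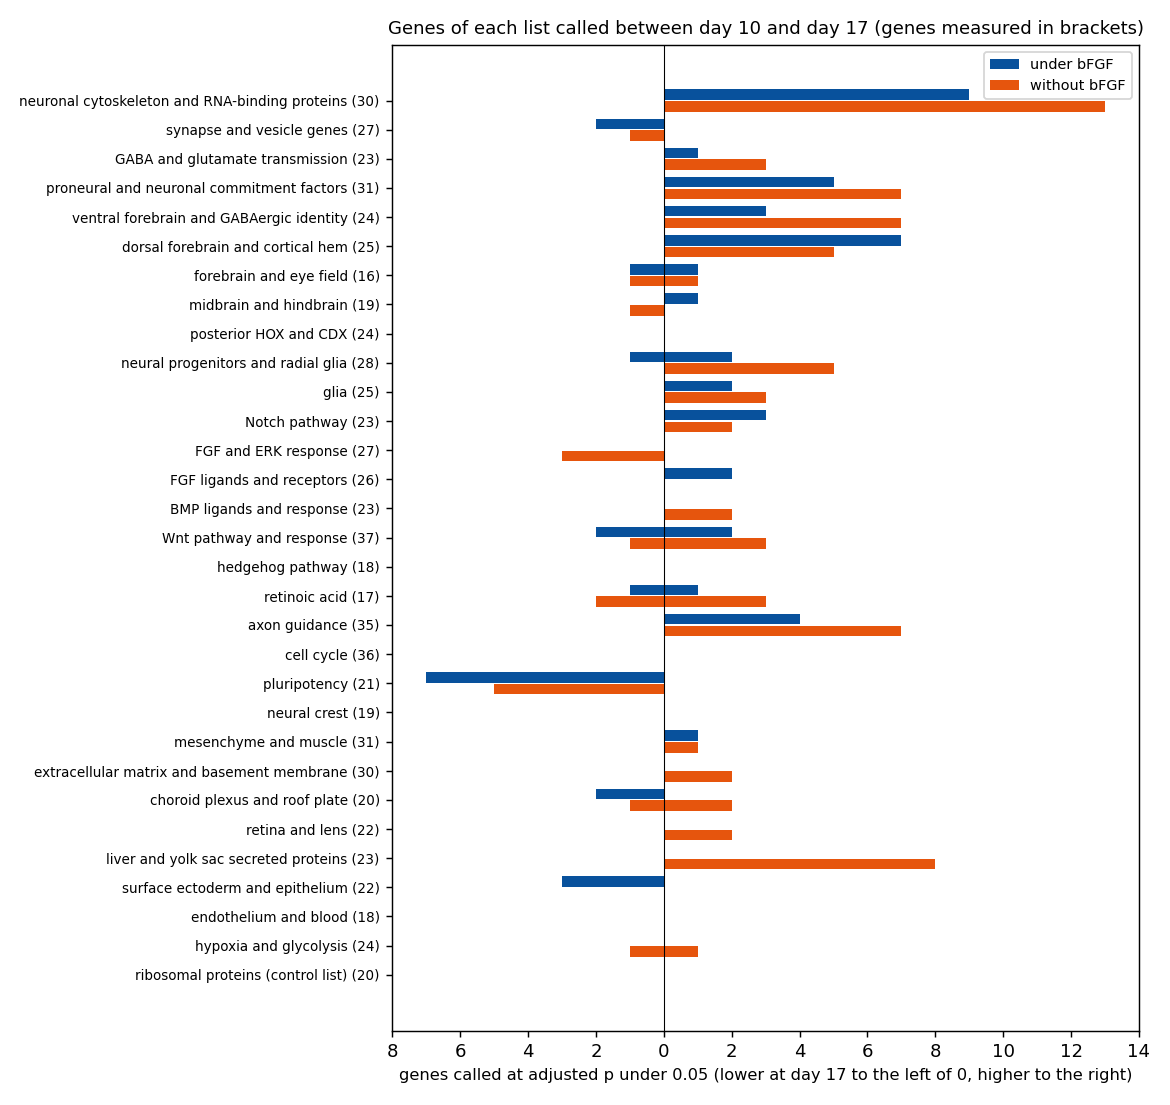
Number of genes of each list called between day 10 and day 17 at an adjusted p under 0.05, lower to the left of 0 and higher to the right, under bFGF (blue) and without it (orange), with the number of genes measured in brackets. Under bFGF the longest bars are the 9 neuronal genes and 7 dorsal forebrain genes that were higher and the 7 pluripotency genes that were lower; for liver and yolk sac proteins there is a bar of 8 without bFGF and none under bFGF.

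Among signalling genes, 2 FGF ligands rose, and no gene of the FGF response list was called. FGF18, an FGF ligand of the developing cortex and midbrain, rose from 51.7, 65.9 and 70.2 to 502, 244 and 575 (2.46 ± 0.28, adjusted p = 0.000329). FGF19, an endocrine-type FGF, rose from 58.6, 9.78 and 63.1 to 168, 154 and 336 (2.06 ± 0.42, adjusted p = 0.0233). Neither overlapped, and they were the 2 called of 26 FGF ligands and receptors, with 1 called without pool 2. FGF17 (1.83, adjusted p = 0.170) and FGF8 (-1.40, adjusted p = 0.425), ligands of the anterior forebrain border, missed the threshold. Of 27 FGF and ERK response genes limma called 0 in either direction, also with the pool as a block, with 5 at an unadjusted p under 0.05 and a median of 0.11. SPRY1, a Sprouty inhibitor of receptor signalling, was at 1019, 858 and 1478 and then at 1522, 1477 and 1922 (0.57 ± 0.26, adjusted p = 0.609). DUSP6, the ERK phosphatase, was at 3384, 1775 and 4663 and then at 4082, 2397 and 3642 (0.11 ± 0.36), and both overlapped.

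Wnt genes moved both ways, 2 higher and 2 lower of 37 (median 0.23). Without pool 2 none of the 37 was called, and with the block 3 were higher and 4 lower. FZD5, a Wnt receptor of the eye field, fell from 8090, 7689 and 8855 to 3522, 3271 and 3315 (-1.28 ± 0.21, adjusted p = 0.00438). SFRP1, a secreted Wnt inhibitor, fell from 5745, 5997 and 6511 to 2777, 2964 and 2682 (-1.11 ± 0.18, adjusted p = 0.00400). Both changes were even over the 3 pools, and the spread within a day was small beside the gap between the days. The higher members were RSPO2 and its receptor LGR5 (1.51 ± 0.25). A second probe set of lower signal gave -0.53 for RSPO2 and 0.60 for LGR5. Of 17 retinoic acid genes RDH10, which makes retinaldehyde, rose from 51.1, 58.6 and 40.3 to 213, 181 and 170 (1.63 ± 0.19, adjusted p = 0.000530) and RARB, a receptor and target, fell (-1.37 ± 0.31). With the block 1 was higher and 4 lower, among them ALDH1A2, which makes retinoic acid (-1.19, adjusted p = 0.0905 without the block and 0.0272 with it), and CYP26A1, which degrades it (-0.75, 0.131 and 0.0141). Of 35 axon guidance genes 4 were higher and 0 lower (median 0.16), 3 without pool 2; with the block 6 were higher and 2 lower, among the latter the Slit receptor ROBO1 (-1.38, adjusted p = 0.0675 without the block and 0.0118 with it). SLIT2, a secreted repellent, went from 347, 254 and 188 to 1421, 1189 and 1566 (2.37 ± 0.26), DCC, the netrin receptor, from 91.8, 47.0 and 90.4 to 487, 372 and 282 (2.11 ± 0.28), EPHA3, an ephrin receptor, rose by 2.07 ± 0.34 and SEMA3C, a semaphorin, by 1.09 ± 0.25. For 23 BMP and 18 hedgehog genes limma called 0, with 6 and 1 at an unadjusted p under 0.05 and medians of 0.47 and -0.06; with the pool as a block 3 BMP genes were higher and 0 hedgehog genes called.

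Of 21 pluripotency genes 0 were higher, 7 lower and 14 not called (median -0.52); 1 was lower without pool 2, and 8 with the block. L1TD1, an RNA-binding protein of ES cells, went from 1451, 1201 and 1158 to 442, 268 and 98.0 (-2.38 ± 0.49, adjusted p = 0.0233). DNMT3B, the de novo DNA methyltransferase, went from 1234, 1167 and 1436 to 672, 561 and 424 (-1.21 ± 0.19, adjusted p = 0.00351). LIN28A, which blocks the maturation of let-7 microRNAs, went from 6820, 8275 and 7120 to 4198, 4086 and 2456 (-1.08 ± 0.24, adjusted p = 0.0426). The days of all 3 were apart, with day 17 pool 3 the lowest. ZFP42 (-1.72), a zinc finger factor of ES cells, DPPA4 (-0.85), a nuclear factor of pluripotent cells, CDH1 and EPCAM were the other 4. Outside the list, APELA, a peptide hormone of ES cells, fell from 177, 180 and 120 to 39.2, 49.5 and 28.1 (-1.67 ± 0.21).

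CDH1 and EPCAM, adhesion proteins of epithelia as well as of ES cells, were also among 3 lower genes of 22 surface ectoderm and epithelial genes (0 higher, median -0.39, 2 lower without pool 2 and 5 with the block). CDH1, E-cadherin, fell from 313, 585 and 268 to 64.7, 68.8 and 46.5 (-2.35 ± 0.31, adjusted p = 0.00120), and its second probe set, of lower signal, gave -0.70. ESRP1, an epithelial splicing regulator, fell from 96.5, 89.3 and 127 to 31.5, 12.3 and 25.3 (-1.64 ± 0.24). The neural cadherin CDH2 was at 4017 to 4694 and then at 4884 to 6252 (0.32, not called). Outside the list, GABRP, an epithelial GABA-A receptor subunit, fell from 107, 217 and 63.5 to a listed 1.34, 5.20 and 3.5 (-2.77 ± 0.44, adjusted p = 0.00398), and RAB25, an epithelial trafficking GTPase (-1.81), MAP7, a microtubule protein of epithelia (-1.81), and the tight junction proteins OCLN (-0.95), MARVELD2 (-1.22) and CLDN10 (-1.53) fell. IGFBP3, an IGF-binding protein, fell from 3342, 1932 and 3134 to 667, 723 and 702 (-1.94 ± 0.27, adjusted p = 0.00164), and PAMR1, a secreted protease-like protein, from 1057, 708 and 1256 to 220, 133 and 174 (-2.40 ± 0.41). TNFSF15, a TNF-family cytokine (-2.29), SLC7A2, a cationic amino acid transporter (-1.83), PKDCC, a secreted kinase (-1.79), and GREB1L (-1.72), for which another probe set gave -0.38, complete the 15 largest decreases among called genes.

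A further 4 called genes, picked out after their values were seen, are loci of microRNAs that are known to mark ES cells or neural tissue. MIR302B, in a microRNA cluster abundant in ES cells, went from 2394, 2555 and 1881 to 1141, 1037 and 716 (-1.24 ± 0.22, adjusted p = 0.00797), against a mean of 12696 in ES cells. MIR100HG went from 133, 82.1 and 156 to 578, 265 and 940 (2.00 ± 0.38, adjusted p = 0.0139), MIR99AHG from 21.3, 31.8 and 25.6 to 67.9, 143 and 66.2 (1.30 ± 0.29, adjusted p = 0.0369), and MIR9-1HG from 123, 135 and 94.3 to 230, 273 and 245 (1.00 ± 0.23, adjusted p = 0.0426). No group overlapped. The arrays read the host transcripts and not the mature microRNAs, whose levels were not measured. The mature RNAs encoded between the ends of these loci are shown, from RefSeq, with the seed (bases 2 to 8) in capitals, because they show which loci share a seed.
hsa-miR-302b-3p: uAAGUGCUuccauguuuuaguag
hsa-miR-9-5p: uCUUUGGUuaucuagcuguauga
hsa-miR-100-5p: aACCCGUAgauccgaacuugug
hsa-miR-99a-5p: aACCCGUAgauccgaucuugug
hsa-let-7a-5p: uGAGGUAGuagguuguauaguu
hsa-let-7c-5p: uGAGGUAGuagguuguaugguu
MIR100HG holds miR-100 and let-7a and MIR99AHG holds miR-99a and let-7c, so the same pair of seeds lies in both transcripts that rose. LIN28A is a known let-7 target itself, as are TRIM71, a ubiquitin ligase of ES cells, and LIN28B, the paralogue of LIN28A. TRIM71 fell from 4693, 5438 and 3492 to 2089, 2603 and 1383 (-1.18 ± 0.24, adjusted p = 0.0196). LIN28B was at 3482, 3903 and 3561 and then at 2777, 2536 and 2531 (-0.48 ± 0.18, adjusted p = 0.435), lower at day 17 in all 3 pools but not called. TRIM71 and LIN28B were picked out after their values were seen, and other let-7 targets were not counted. Whether let-7 had a part in any of these changes was not tested.

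Most markers of other cell types were not called under bFGF. Of 23 liver and yolk sac genes limma called 0, with 2 at an unadjusted p under 0.05, and their summed signal was 607 to 1284 at day 10 and 920 to 1235 at day 17. Neural crest (19 genes), retina and lens (22), endothelium and blood (18) and extracellular matrix (30) also had 0 called, with 6, 3, 1 and 5 at an unadjusted p under 0.05; with the pool as a block, 1 liver and 1 retina and lens gene were lower and 1 matrix gene went each way. Of 20 choroid plexus genes the channel KCNJ13 (-1.54) and the claudin CLDN2 (-1.63) were lower, and neither was called without pool 2. Of 31 mesenchyme and muscle genes PRRX1, a mesenchymal homeobox factor, was higher, from 65.2, 81.4 and 64.5 to 426, 227 and 323 (1.95 ± 0.36, adjusted p = 0.0121; 0 members without pool 2), and the list's summed signal was 18433 to 18865 and then 22291 to 25031. Hypoxia and glycolysis (24 genes) and ribosomal proteins (20, a control) had 0 called, with 4 and 0 at an unadjusted p under 0.05; the block called 1 hypoxia gene lower. The part of these cell types in the changes of other genes was not tested.

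The same test in the pools without bFGF called 403 genes (2.04%), 296 higher (1.50%) and 107 lower (0.541%). With the pool as a block it called 764. Its group means come from other arrays, but both tests come from the same fit and share each gene's error estimate. A gene with a small spread was therefore easier to call in both treatments. Of the 403, 137 were also called under bFGF, all in the same direction, which is 65.6% of the bFGF calls and 34.0% of the untreated calls; 99 were higher and 38 lower. Of all 209 genes called under bFGF, 204 had the same sign without it. Over all genes the changes correlated at r = 0.428 and rho = 0.264, across genes that are not independent and on arrays that share the pool numbers. The median log2 change of the 132 higher genes was 1.54 under bFGF and 1.47 without, and that of the 77 lower genes was -1.28 and -0.97. These genes were selected by their change under bFGF, which favours the larger median there. Genes called without bFGF alone went the other way. Medians under bFGF and without it were 0.62 and 1.34 for the 197 higher, and -0.62 and -1.18 for the 69 lower. Over all genes the change was smaller in size under bFGF for 54.1%. For the difference between the 2 changes limma called 0 genes (0%), with 633 at an unadjusted p under 0.05 (3.20%), and a smallest adjusted p of 0.427. With the pool as a block 1 gene was called, SPRY1 (adjusted p = 0.00438). The median standard error of the difference was 0.436, against 0.309 for the change under bFGF. Apart from SPRY1 with the block, the genes below therefore differ between treatments by unadjusted p-values alone, and were picked out after their values were seen.

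**Figure D3:**
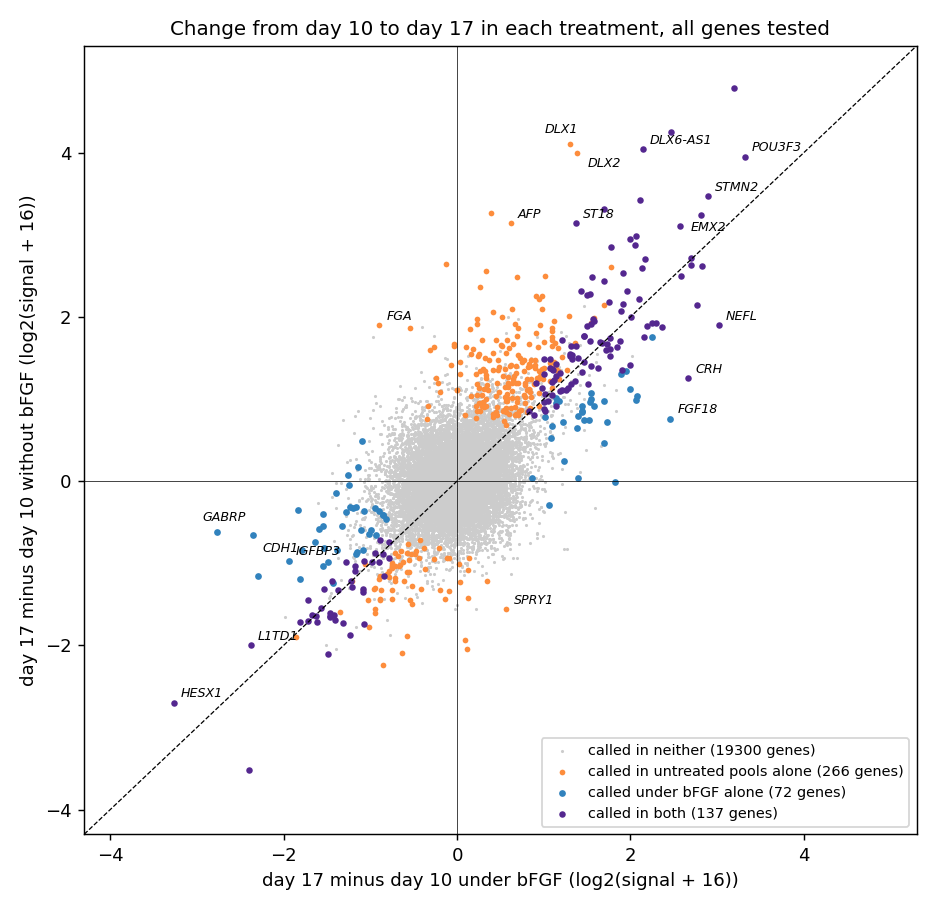
Change from day 10 to day 17 in log2(signal + 16) under bFGF (x) and without it (y), 1 point per gene, coloured by the treatment in which limma called it; the dashed line marks equal change. The 137 genes called in both treatments lie in the upper right and lower left, while DLX1, DLX2, AFP and ST18 lie above the line and CRH, NEFL and FGF18 below it.

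Several ventral and GABAergic genes had the smaller change under bFGF. DLX1 without bFGF went from 25.2, 15.7 and 35.9 to 685, 1001 and 471 (4.11 ± 0.46), so that its day 10 signals were below all 3 day 10 bFGF signals while the day 17 signals overlapped; the difference, bFGF minus untreated, was -2.81 ± 0.66 (unadjusted p = 0.000572, adjusted p = 0.672). DLX2 without bFGF went from 2.09, 84.9 and 49.6 to 678, 812 and 839 (difference -2.62 ± 0.70, adjusted p = 0.772), and DLX6-AS1 rose by 4.04 (difference -1.90 ± 0.40, adjusted p = 0.619). LHX8, a LIM factor of ventral neurons, rose by 2.22 without bFGF and was not called under it (0.95, adjusted p = 0.110). In all, 7 of the 24 ventral genes were higher without bFGF and 3 under it, while 5 and 7 of the 25 dorsal genes were; these counts were not tested against each other. NR2E1 (4.25 without, 2.47 under bFGF), ST18 (3.14 and 1.37), PANTR1 (4.79 and 3.19) and DCC (3.42 and 2.11) were also higher in both treatments with the smaller rise under bFGF, with adjusted p of 0.672 to 0.934 for the difference.

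**Figure D4:**
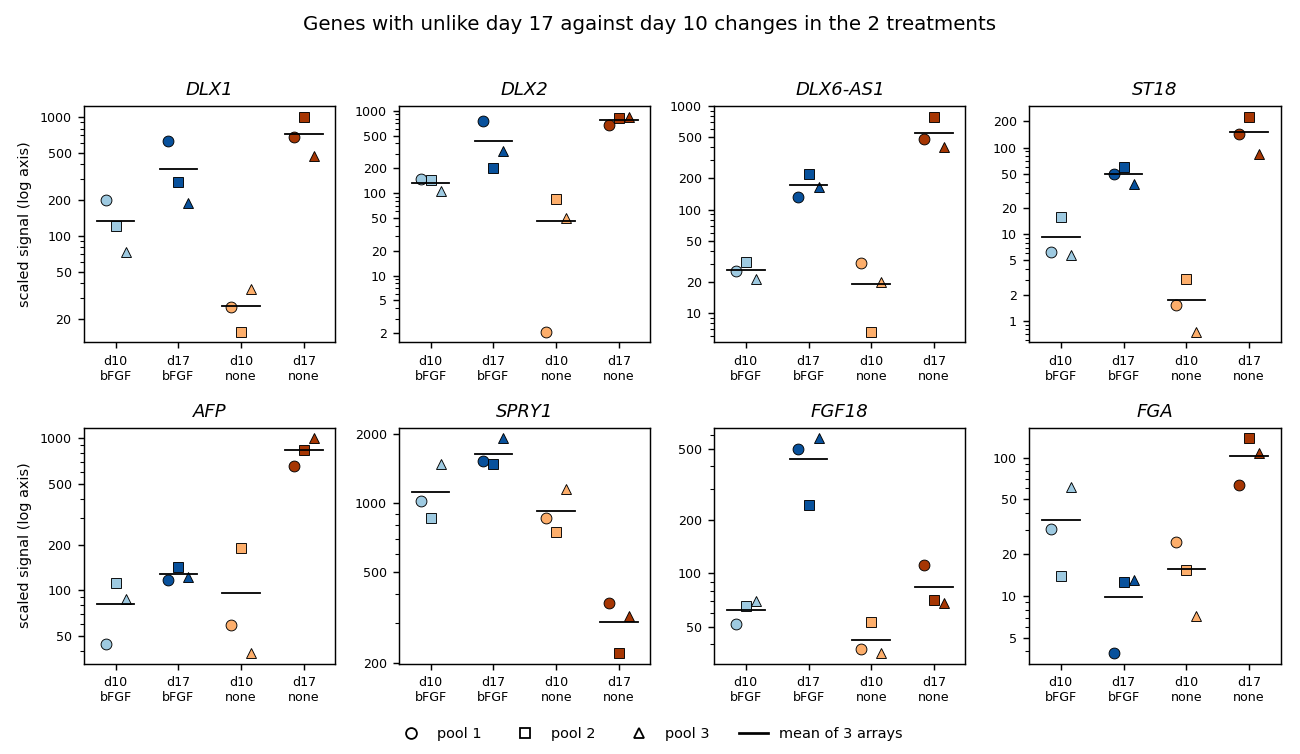
Scaled signal (log axis) of 8 genes on each array, by day and treatment, with a symbol for each pool and a line at the mean of 3 arrays. At day 17 the arrays without bFGF were all above the arrays with it for DLX6-AS1, ST18, AFP and FGA and all below them for SPRY1 and FGF18; for DLX1 the 2 treatments overlapped at day 17 but not at day 10.

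Liver and yolk sac proteins and FGF response genes were called without bFGF and not under it. AFP, alpha-fetoprotein, was at 44.2, 112 and 87.9 and then 117, 143 and 122 under bFGF (0.62 ± 0.38, adjusted p = 0.900), and at 59.7, 189 and 38.9 and then 659, 834 and 997 without it (3.14, adjusted p = 0.000224; difference -2.52 ± 0.53). AFP, with no call under bFGF, was 1 of 8 liver and yolk sac genes called higher without bFGF; TTR, AHSG and APOA2, secreted plasma proteins, changed by 3.27, 2.37 and 2.49 there and by 0.39, 0.26 and 0.69 under bFGF. SPRY1 fell without bFGF from 859, 747 and 1152 to 364, 221 and 321 (-1.56, adjusted p = 0.00315), and its difference between treatments of 2.14 ± 0.36 had the smallest p of all genes (unadjusted p = 2.16e-05, adjusted p = 0.427, and 0.00438 with the pool as a block). DUSP6 also fell there (-2.05, adjusted p = 0.00571; difference 2.17 ± 0.52), and so did IL17RD, another FGF feedback inhibitor (-1.08, adjusted p = 0.0174; difference 1.21 ± 0.32). These were the 3 members called of the 27 response genes without bFGF.

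Some changes were larger under bFGF. FGF18 without bFGF went from 37.6, 53.3 and 35.7 to 112, 70.9 and 68.5 (0.76, adjusted p = 0.274; difference 1.70 ± 0.39, adjusted p = 0.672), CRH from 21.0, 12.3 and 3.18 to 39.9, 71.7 and 39.2 (1.25; difference 1.42 ± 0.40), and NEFL rose by 1.90 against 3.02. DMRTA1 was at 1.47, 11.7 and 4.06 and then 6.47, 9.11 and 2.86 (0.04; difference 1.34 ± 0.31). GABRP without bFGF was at 213, 270 and 145 and then at 200, 185 and 51.1 (-0.62; difference -2.15 ± 0.62), and CDH1 at 324, 445 and 270 and then 260, 266 and 129 (-0.66; difference -1.68 ± 0.44). Without bFGF the days overlapped for GABRP and nearly touched for CDH1, and neither was called. CPNE4, a calcium-dependent membrane-binding protein, changed by 1.82 under bFGF and -0.01 without (difference 1.83 ± 0.54).

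The earlier stages give a view on arrays that do not enter the bFGF group means. The spread of those arrays within their groups did enter the error behind the calls, and their signals helped to choose the probe sets. Of the 77 genes lower at day 17 under bFGF, 50 (64.9%) had been higher in day 6 embryoid bodies than at day 10 without bFGF, against 41.9% of all genes. Of the 132 higher genes 36 (27.3%) had. The median difference, day 6 minus untreated day 10, was 0.41 for the lower genes, -0.33 for the higher genes and -0.10 for all. In ES cells 44 of the 77 lower genes (57.1%) were above untreated day 10, against 41.5% of all genes and 42 of the 132 higher genes (31.8%). The median difference, ES minus untreated day 10, was 0.22 for the lower genes, -0.37 for the higher genes and -0.10 for all. In ES cells CDH1 averaged 4015 and DPPA4 8091, and in embryoid bodies 3867 and 4193. Other lower genes were low in ES cells, such as GABRP at 8.11 and LRP2 at 30.5.

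The firmness of the calls differed between genes. Of 69 named genes called under bFGF, 35 kept the call without pool 2 and without each of the 6 arrays in turn, among them STMN2, NEFL, POU3F3, PANTR1, EMX2, CRH, ABAT, FGF18, HESX1, CDH1, IGFBP3, DLX6-AS1, NKX2-1, SLIT2 and HEY1. Without at least 1 array 26 lost it, with adjusted p up to 0.245 (NEFM without day 17 pool 1); LIN28A and SEMA3C lost it whichever array was left out. The other 24 were CLDN2, EN2, EOMES, EPCAM, FGF19, KCNJ13, L1TD1, LHX9, LRP2, NHLH1, NLGN1, OLIG1, PKDCC, PLAGL1, PRRX1, RAB25, RARB, RELN, RSPO2, SCG5, SLC7A2, ST18, TBR1 and NEFM itself. Without pool 2, 28 lost the call, including DNMT3B (adjusted p = 0.0663), GABRP (0.0558), ZFP42 (0.0652), FZD5 (0.0541), SFRP1 (0.0767), LGR5 (0.106), ZNF536 (0.0541) and GREB1L (0.0557), which kept it without any single array. DLX1 was called under none of the 16 alternatives, with changes of 0.84 to 1.67.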

How the data were processed

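The values deposited by the authors are linear signal intensities of 54675 probe sets on each of 18 arrays, with equal trimmed means of 150; the summarisation software is not given in the sources used here, and no further scaling was applied. Names came from GEO's annotation of the array, which gives 1 gene for 41097 probe sets, several for 1801 and none for 11777. The probe set kept per gene names that gene alone, is not an _x_at set where another exists, and has the highest mean over the 18 arrays, which gave 19775 genes. There are no detection calls to bound low signals, and precision is limited by the number of arrays.

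Each group mean was fitted to log2(signal + 16) over all 18 arrays (12 residual degrees of freedom) with lmFit and eBayes (limma 3.58.1, R 4.3.3). The contrasts were day 17 minus day 10 under bFGF, the same without bFGF, and their difference, with Benjamini-Hochberg adjustment over 19775 genes. The scripts were tested on simulated data. Pool numbers come from the titles, which for 1 bFGF day 10 pool (2) differ from the description (1). Deviations of same-numbered pools from their group means correlated at 0.330, 0.659 and 0.431 over genes under bFGF. Across numbers, pools 1 and 3 also correlated, at 0.251 and 0.186, while pool 2 with either of them gave -0.503 to -0.373. Pairing by number was thus clearest for pool 2 and less so between pools 1 and 3. The bFGF counts with the pool as a block stand beside the main ones where they change them.

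The comparison, the 31 gene lists and the rule for named genes (the markers DLX1, STMN2 and EMX2, the 15 largest increases and 15 largest decreases among called genes, and up to 6 members of each list by size of change) were chosen with earlier results of these data known. Genes named outside that rule were chosen after their values were seen. Lists share 55 members. Promoter and microRNA sequences are from RefSeq tables of GRCh38.p14; no promoter entry was found for STMN2, NEFL, INSM1, CDH1, EPCAM or LIN28A. Alternatives were other pseudocounts, quantile scaling, a filter on dim genes, another variance prior, the compared groups alone, the mean of probe sets, the pool block, and leaving out arrays.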

Additional observations from a re-analysis of the deposited data

Results flagged for a closer look

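For 5 of the named genes every pool moved one way under bFGF and the opposite way without it. All named genes were screened for this pattern, and its share over all genes was not counted. The 5 therefore cannot be set against the number that random signs would give. SPRY1, the Sprouty inhibitor, was higher at day 17 than at day 10 in all 3 bFGF pools and lower in all 3 untreated pools, a difference of 2.14 on the log2 scale. FGA, a fibrinogen chain made by liver and yolk sac, was lower at day 17 in the bFGF pools (30.3, 14 and 61.7, then 3.89, 12.7 and 13) and higher in the untreated pools (24.6, 15.4 and 7.23, then 63.2, 138 and 109), a difference of -2.80. The same held for PAX7, a paired-box factor of neural crest and dorsal neural tube (0.99 under bFGF, -0.67 without, a difference of 1.66), SPRED3, an inhibitor of ERK signalling (0.61 and -0.40, a difference of 1.00), and PTCH1, the hedgehog receptor (-0.40 and 0.25, a difference of -0.65). limma's test of the difference, adjusted over all genes, did not pass for any of the 5 (adjusted p = 0.427 for SPRY1, 0.619 for FGA, 0.722 for PAX7 and 1 for the other two). With the pool as a block it passed for SPRY1 (adjusted p = 0.00438) and not for the other four (0.227 to 0.703). Both FGA changes start from low signals.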

How the results depend on the processing

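The number of genes called under bFGF, 209 as reported, was 113 with a pseudocount of 1, 6 when the compared groups were fitted alone (4 residual degrees of freedom in place of 12), 93 without pool 2 of every group, 364 with a term for the 4 arrays with raised low signals, and 117 to 150 without 1 array; the other alternatives gave 141 to 298. With the pool number as a replicate block it was 450, and the untreated count was 764 in place of 403. The untreated count was 239 with a pseudocount of 1, 37 with the groups alone, 184 without pool 2, 659 with the term, and 212 to 322 without 1 array. For the difference between treatments 0 genes were called, but 1 with a pseudocount of 64, with the replicate block or with the term, and 0 to 1 without 1 array. Of the 69 named genes called, 0 reversed under any of these alternatives. Their groups did not overlap, so only quantile scaling or the mean of probe sets could have changed a sign. Of the 69, 63 lost the call with the groups alone, 29 with a pseudocount of 1, 28 without pool 2 and 18 with the mean of probe sets. ABAT, CRH, NEFL, PANTR1, POU3F3 and STMN2 kept it under all. With 3 arrays a group, and no detection calls, changes at low signals are the least certain. The cause of these shifts was not tested.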
